A study of Mus musculus with 29 samples.

Results

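Oxidative phosphorylation is carried out by 5 protein complexes of the inner mitochondrial membrane, and the genes of their nuclear-encoded subunits were followed here across tumor-bearing and tumor-free prostates. The set was chosen by symbol: Nduf (complex I and its assembly factors), Sdh with a single letter (complex II), Uqcr (complex III), Cox with 4, 5, 6, 7 or 8 and a letter (complex IV) and Atp5 (complex V). Of 85 such symbols on the array, 79 had a probe detected above background (detection p under 0.01) on at least 1 of 29 arrays, out of 10768 genes detected in all. The 79 genes comprised 38 of complex I, 3 of complex II, 6 of complex III, 17 of complex IV and 15 of complex V. Among them were 6 assembly factors, the Ndufs5-ps entry, annotated as a pseudogene of the complex I subunit Ndufs5, and 5 tissue isoforms of complex IV subunits (Cox4i2, Cox6a2, Cox6b2, Cox7a1 and Cox8b). Ndufa4 was counted with complex IV.

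Complex I, the NADH dehydrogenase, and complex II, succinate dehydrogenase, pass electrons from metabolic substrates to ubiquinone, from which complex III and then complex IV, cytochrome c oxidase, carry them to oxygen. The proton gradient built on the way drives complex V, the ATP synthase. Most subunits are made in every tissue, but several of cytochrome c oxidase have a second gene used mainly in heart and skeletal muscle, lung or testis.

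RNA of 29 prostates, 1 per mouse, had been hybridised to single-colour Illumina arrays (MouseRef-8 v2.0) on 4 chips. Every mouse was male, of a C57BL/6 strain, and carried the TRAMP transgene, in which the rat probasin promoter drives SV40 T antigens in the prostate epithelium. The tumor-bearing prostates came from 3 OPN-/-TRAMP mice, 18 wks old, with palpable neuroendocrine (NE) tumors (OPT-tm) and from 4 TRAMP mice, 30 wks old, with palpable adenocarcinomas (T30). Prostates without palpable tumor came from 4 TRAMP mice 18 wks old (T18) and from OPN-/-TRAMP mice 15 wks old (OPT15, n = 5) or 18 wks old (OPT18, n = 13). In OPN-/- mice the gene Spp1 is deleted, which encodes the secreted matrix protein osteopontin. No probe is named for it, so the deletion was not checked on these arrays. The labels divide the OPN-/-TRAMP prostates without palpable tumor into Reliquia (4 of OPT15 and 9 of OPT18) and Ineuntes (1 and 4). These were taken as the Early-ADC and Early-NE classes of the study, since the class with 1 and 4 prostates has the sizes of its Early-NE class. The authors made these classes by clustering the same arrays. The text of the study gives n = 9 for OPT18 where the labels give 13, though the sizes of its early classes go with the labels. All 13 were used. Its Early-ADC class also held the T18 prostates, which are kept apart here.

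Values are log2 signals after quantile normalization, a change is a difference of group means with its standard error (SE), and a gene passed when its adjusted p was under 0.05 in limma over all 10768 genes. The share of probes detected per array ran from 38.7% to 51.8% and was lower on chips 3 and 4. The mean signal of 5 neuroendocrine markers was 13.45 to 13.76 in OPT-tm and 7.98 to 8.09 in T30, that of 4 luminal epithelial markers was 9.46 to 9.76 and 10.97 to 11.80, and that of 5 smooth muscle genes was 9.90 to 10.02 and 12.65 to 13.18. The mean of 3 seminal vesicle genes was 8.055 to 8.84 in OPT-tm, 15.71 to 16.06 in OPT18 and 15.93 to 15.99 in T18. It ran from 9.42 to 16.02 in T30, with the low value on chip 1. In whole prostates, fewer cells of a type and less RNA per cell cannot be told apart.

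Of the 79 genes, 67 were detected on all 29 arrays. The other 12 were Atp5e, Cox4i2, Cox6a2, Cox6b2, Cox7b, Cox8b, Ndufab1, Ndufaf3, Ndufaf5, Ndufb11, Ndufb2 and Ndufb4. At the high end the mean signals of Atp5b and Atp5g3 stood at percentiles 99.93 and 99.86 among all genes. Whether brightness limited the changes read for such members was not tested. At the low end Cox4i2, the lung isoform of subunit 4, was detected on 1 array, a T30 prostate at 8.55. Atp5k, Cox7b2, Cox8c, Ndufs1, Uqcrfs1 and Uqcrq were detected on none, and 12 further protein-coding genes of these families, among them the flavoprotein Sdha of complex II, had no named probe.

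The first question was whether the NE tumors and the adenocarcinomas, which differed in age and genotype as well as histotype, differed in these genes. Few members passed, and by small changes. Between OPT-tm and T30, 3 of 79 members were higher and 3 lower, against a background of 21.4% of all genes higher and 21.7% lower. The share past the test was thus 7.59% of members and 43.1% of all genes. No member changed 2-fold or more, where 1242 of 10768 genes passed the test higher and 1351 lower by at least 2-fold. The median change was 0.03 over the members and -0.03 over all genes, and 42 members had a positive change. By complex, the median was 0.04 for complex I, -0.27 for complex II, -0.07 for complex III, -0.06 for complex IV and 0.08 for complex V. All 6 members past the test were on the complex I side, and none of the 41 genes of complexes II to V passed.

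**Figure D1:**
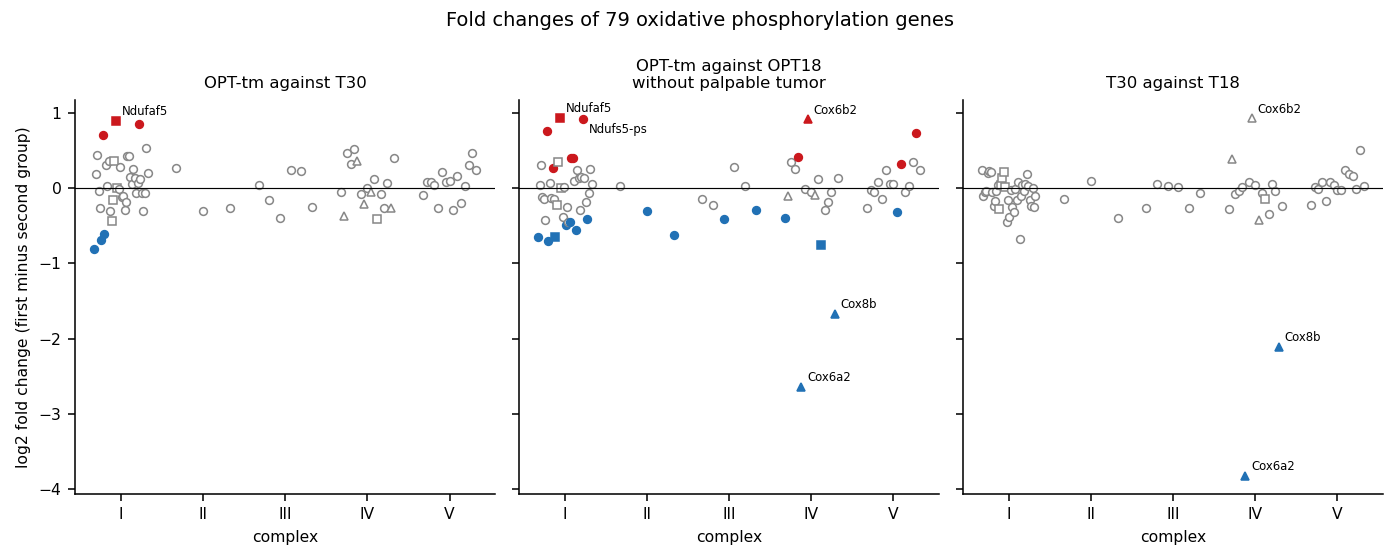
Change of each of the 79 genes (vertical axis, log2 of the first group over the second) in the OPT-tm against T30, OPT-tm against OPT18 and T30 against T18 comparisons, arranged by complex along the horizontal axis, with genes past the test filled red (higher) or blue (lower), tissue isoforms as triangles and assembly factors as squares. Changes between OPT-tm and T30 lie between -0.81 and 0.89, while Cox6a2 and Cox8b fall far below the other complex IV genes in both comparisons of tumors with prostates without palpable tumor.

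Of the complex I genes, 3 were higher in the NE tumors. Ndufaf5, an arginine hydroxylase that acts in the assembly of complex I, stood at 10.17, 10.89 and 10.28 in OPT-tm and at 9.45, 9.60, 9.59 and 9.60 in T30, a change of 0.89 (SE 0.19, adjusted p = 0.0066, limma). Each NE tumor was above each adenocarcinoma and above the highest OPT18 prostate, at 9.87. Ndufs5-ps read 12.17, 12.65 and 11.95 in OPT-tm and 11.25, 11.40, 11.64 and 11.35 in T30, a change of 0.85 (SE 0.20, adjusted p = 0.0085, limma). Ndufs5 itself had no named probe, so RNA of the pseudogene and of its parent gene cannot be told apart. Ndufa5, an accessory subunit of the peripheral arm, read 13.52, 14.16 and 13.92 against 13.14, 13.10, 13.05 and 13.37, a change of 0.71 (SE 0.18, adjusted p = 0.0147, limma). A second detected probe of Ndufa5 changed by 0.22 and one of Ndufaf5 by 0.29, and neither passed the test.

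Lower in the NE tumors were 3 small accessory subunits of complex I. Ndufa1, needed for the assembly of the membrane arm, read 14.28, 14.64 and 13.96 in OPT-tm and 14.77, 15.52, 15.25 and 14.87 in T30, a change of -0.81 (SE 0.24, adjusted p = 0.0242, limma). Ndufa3 read 13.32, 13.70 and 13.18 against 14.05, 14.01, 14.27 and 14.02, a change of -0.69 (SE 0.17, adjusted p = 0.0109, limma). The 4 adenocarcinomas thus lay close together and above all 3 NE tumors. Ndufa6 read 13.51, 13.72 and 13.19 against 14.11, 13.73, 14.16 and 14.35, a change of -0.62 (SE 0.20, adjusted p = 0.0345, limma), with the groups just apart. Within chips 1, 2 and 3, each of which held 1 tumor of both kinds, the OPT-tm array was above the T30 array on all 3 for Ndufaf5 (by 0.69 to 1.29), Ndufs5-ps (by 0.31 to 1.25) and Ndufa5. Their difference ran from -1.29 to -0.49 for Ndufa1, from -1.09 to -0.31 for Ndufa3 and from -0.98 to -0.02 for Ndufa6. The call of Ndufa6 was lost with the chip as a block (adjusted p = 0.134, limma) and in 5 of 7 fits that left out a mouse, and that of Ndufa1 in 3 of 7.

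These counts depended on single tumors. Without the OPT-tm tumor of chip 3, 7 members were higher and 1 lower, and without that of chip 2, 3 were higher and 6 lower. Over all 10768 genes these fits gave 2058 higher and 1900 lower, and 2161 and 2074, where the main fit gave 2305 and 2337. The count of lower members was 1 without the OPT-tm tumor of chip 1 or the T30 tumor of chip 3, against 1890 and 2005 of all genes. With array medians set equal in place of quantile normalization, 2 were higher and 0 lower, against 1797 and 1312 of all genes. At an unadjusted p under 0.05 in limma were 3 members then and 9 in the main fit, beside 5530 of 10768 genes there.

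**Figure D2:**
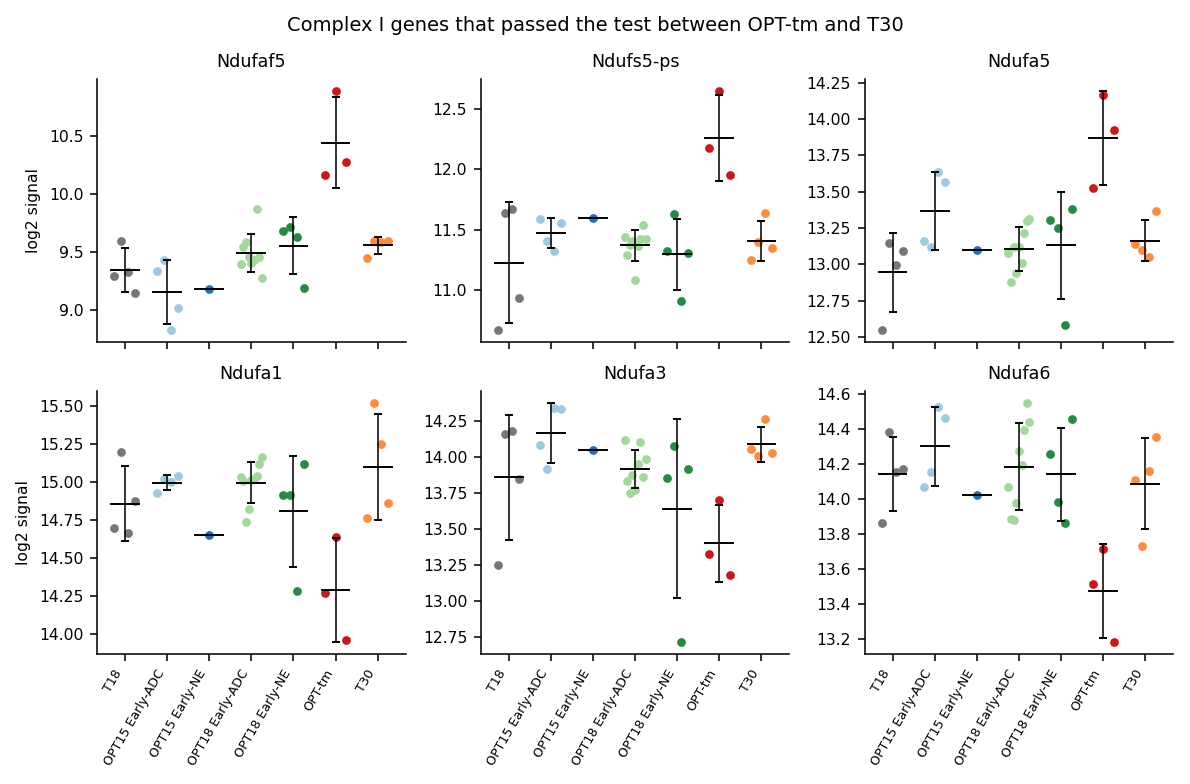
log2 signal (vertical axis) of the 6 complex I genes past the test between OPT-tm and T30, 1 point per array in 7 groups, with the mean and SD as bars (OPT15 Early-NE is 1 array). The 3 OPT-tm points do not overlap the 4 T30 points in any panel, and Ndufaf5 in OPT-tm, from 10.17 to 10.89, lies above every other group.

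The second comparison asked what set the NE tumors apart from prostates of the same age and genotype without palpable tumor. Of the 79 members, 10 rose and 16 fell from OPT18 to OPT-tm, against 32.2% of all genes higher and 32.3% lower. That was 32.9% of members and 64.5% of all genes, with a median change of -0.05 over members and -0.01 over all genes. Past 2-fold were 0 members higher and 2 lower, both muscle isoforms of complex IV. By that rule 1321 of 10768 genes were higher and 13.6% of all genes lower.

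In complex I, 6 of 38 genes were higher and 7 lower. The higher genes were Ndufaf5 (0.93), Ndufs5-ps (0.91), Ndufa5 (0.75), Ndufb6 (0.40), Ndufb7 (0.40) and Ndufa9 (0.27). Of these, Ndufb7, an accessory subunit on the intermembrane side, read 10.43, 10.78 and 10.49 in OPT-tm and between 9.95 and 10.36 in the 13 OPT18 prostates, without overlap. Second probes changed by 0.18 for Ndufaf5, 0.14 for Ndufa5 and -0.16 for Ndufb6, and none of these passed. The lower genes were Ndufa6 (-0.70), Ndufa1 (-0.65), Ndufaf1 (-0.65), Ndufb9 (-0.56), Ndufb2 (-0.49), Ndufb5 (-0.45) and Ndufs8 (-0.42). Ndufaf1, an assembly factor of the membrane arm, read 11.65, 11.55 and 11.25 in OPT-tm, below the OPT18 range of 11.90 to 12.37 (SE 0.11, adjusted p = 3.74e-05, limma). Ndufs8, which carries iron-sulfur clusters and is among the core subunits, read 12.11 to 12.55 in OPT-tm and 12.51 to 12.90 in OPT18, where the ranges met. With the chip as a block, Ndufb2 (-0.27) and Ndufb5 (-0.22) did not pass.

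In complex II the membrane anchor subunits Sdhd (-0.62, SE 0.25, adjusted p = 0.0341, limma) and Sdhc (-0.31) were lower, and the iron-sulfur subunit Sdhb was at 0.03. Sdhd read 10.23, 10.62 and 9.52 in OPT-tm, inside or below the OPT18 range of 10.19 to 11.54. Sdhd also moved with the chip: it read 9.52 to 10.57 on chip 3 and 10.80 to 11.54 on chip 4, which held no OPT-tm array, and with the chip as a block neither Sdhd nor Sdhc passed. In complex III, Uqcrb (-0.41) and Uqcrh (-0.29), a pair of small subunits without redox centres, were lower, with ranges that overlapped those of OPT18. With the chip as a block their changes were -0.18 and -0.19 and did not pass.

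In complex V, Atp5o, the oligomycin-sensitivity subunit of the stalk, read 11.08, 10.81 and 10.31 in OPT-tm, with OPT18 between 9.64 and 10.53 (change 0.72, SE 0.17, adjusted p = 0.0010, limma). Atp5o was also above T18 (9.48 to 10.11) in every NE tumor, and 10.10 to 10.42 in T30. Atp5j, a coupling subunit, was higher by 0.32 and Atp5h, subunit d of the peripheral stalk, lower, at -0.32. The Atp5h call was lost with the chip as a block, and that of Atp5j with the authors' values and with the mean of its probes, of which the other changed by 0.02. The other 12 genes of complex V did not pass. In complex IV, Cox6a1 (0.42) and the testis isoform Cox6b2 (0.91) were higher, and Cox4i1 (-0.40), Cox7a2l (-0.76), Cox6a2 and Cox8b lower. A second probe of Cox6a1 changed by 0.27 and did not pass. The Cox6a1 call was lost with the authors' values, with array medians set equal and without the OPT-tm tumor of chip 2. Cox7a2l, a factor that helps to join complexes III and IV into supercomplexes, read 13.25, 14.00 and 12.49 in the 3 NE tumors, so its fall differed widely between them.

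Subunit levels varied most among the NE tumors. The median SD of a member was 0.36 in OPT-tm against 0.24 for all genes, and 0.15 in T30 against 0.23 for all genes. Taken as the median deviation of the subunits from their own means over the 29 arrays, the OPT-tm tumor of chip 2 stood at 0.26, that of chip 1 at 0.01 and that of chip 3 at -0.35. The 22 prostates without palpable tumor spanned -0.23 to 0.17, and T30 -0.10 to 0.01, so the tumors of chips 2 and 3 lay on either side of every other array. Within chips, the median difference of OPT-tm from T30 over the members was 0.03, 0.41 and -0.18, with 43, 64 and 22 of 79 positive. The counts against OPT18 moved with it: 21 higher and 7 lower without the tumor of chip 3, 7 and 24 without that of chip 2, and 8 and 9 without that of chip 1. Over all genes these fits gave 3234 and 3137, 3327 and 3320, and 3174 and 3256. With array medians set equal 6 were higher and 3 lower, and with the chip as a block 15 were higher and 10 lower. Over all genes these settings gave 2930 and 2712, and 3576 and 3589, where the main fit gave 3462 and 3480.

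**Figure D3:**
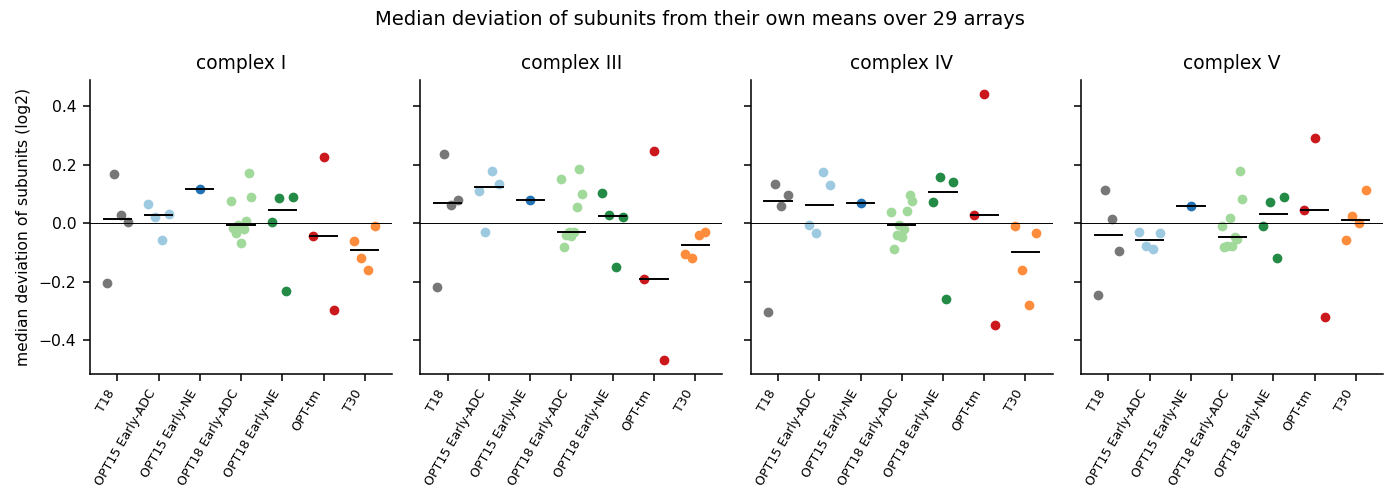
Median deviation (vertical axis, log2) of the subunits of complexes I, III, IV and V from their own means over 29 arrays, 1 point per array in 7 groups, with the group median as a line. The 3 OPT-tm arrays spread from -0.30 to 0.23 in complex I and from -0.35 to 0.44 in complex IV, wider than T30.

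The muscle isoforms were described apart. Cox6a2, the heart and skeletal muscle form of subunit 6a, stood at 10.80, 12.24, 12.44 and 11.94 in T18 and at 8.0, 8.27, 7.90 and 7.94 in T30. In OPT18 it ran from 9.75 over a median of 11.12 to 12.35, and in OPT-tm it was 8.29, 8.71 and 8.14. It was detected on all T18 and OPT18 arrays, on 1 of 3 OPT-tm arrays and on none of T30. Both kinds of tumor thus lay below every T18 and OPT18 prostate. In OPT15 it read 12.29, 12.07, 8.64, 8.92 and 10.67, where the 2 low prostates, Early-ADC on chip 3, were near the tumors.

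Cox8b, the heart and skeletal muscle form of subunit 8 in the mouse, read 9.15, 10.83, 10.95 and 10.64 in T18, 8.39, 8.15, 8.14 and 8.46 in T30, and 7.97, 8.34 and 7.75 in OPT-tm, with OPT18 between 9.02 and 10.51. It was detected on none of the 7 tumor arrays. Between T30 and T18, 0 of 79 members were higher and 2 lower, these 2 isoforms, against 0.492% of all genes higher and 1.75% lower (1.24% lower by 2-fold or more). At an unadjusted p under 0.05 in limma were 6 members and 1896 of 10768 genes. With the chip as a block 12 members were, and all genes were not counted at that level. Cox6a2 changed by -3.82 (SE 0.31, adjusted p = 0.000382, limma) and was at least 8.55-fold lower, a bound that sets T18 against the lowest signal of a detected probe on each T30 array. Cox8b changed by -2.11 (SE 0.35, adjusted p = 0.0148, limma) and was at least 3.11-fold lower. Its call was lost with the chip as a block (adjusted p = 0.0525, limma) and without the T18 prostate of chip 2 or 4 or the T30 tumor of chip 3 (adjusted p = 0.0566, 0.0596 and 0.0623, limma). Over all genes, array medians set equal gave 3 higher and 84 lower in place of 53 and 188.

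Between OPT-tm and OPT18, Cox6a2 changed by -2.64 (SE 0.38, adjusted p = 6.08e-06, limma) and Cox8b by -1.68 (SE 0.26, adjusted p = 1.41e-05, limma), the latter at least 2.06-fold lower. For Cox7a1, the muscle form of subunit 7a, no comparison passed. It was detected on every array and read 9.05, 10.17 and 9.47 in OPT-tm, 9.07 to 9.91 in T30, 9.18 to 10.52 in T18 and 9.17 to 10.36 in OPT18. Its change was -0.42 between T30 and T18 (SE 0.30, adjusted p = 0.506, limma), with overlapping groups. On each of the 4 chips the T30 array was below the T18 array, by differences from -0.70 to -0.11.

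The ubiquitous forms of the same subunits gave no fall past the test beside them. Cox6a1 changed by 0.02 between T30 and T18 (95% interval -0.26 to 0.30) and Cox8a by -0.04 (95% interval -0.39 to 0.31), and between OPT-tm and OPT18 by 0.42 and -0.05 (SE 0.15 and 0.16). Cox6a1 read 15.43, 15.99 and 15.11 in OPT-tm, 14.88 to 15.24 in T18 and 14.93 to 15.11 in T30. Its second probe changed by 0.08 and 0.27 in the same 2 comparisons, and neither change passed. Cox7a2, the ubiquitous form of subunit 7a, changed by -0.07 and 0.12 in the 2 comparisons. Of the 11 ubiquitous subunits of complex IV, 0 passed between T30 and T18, with 0 at an unadjusted p under 0.05 in limma.

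**Figure D4:**
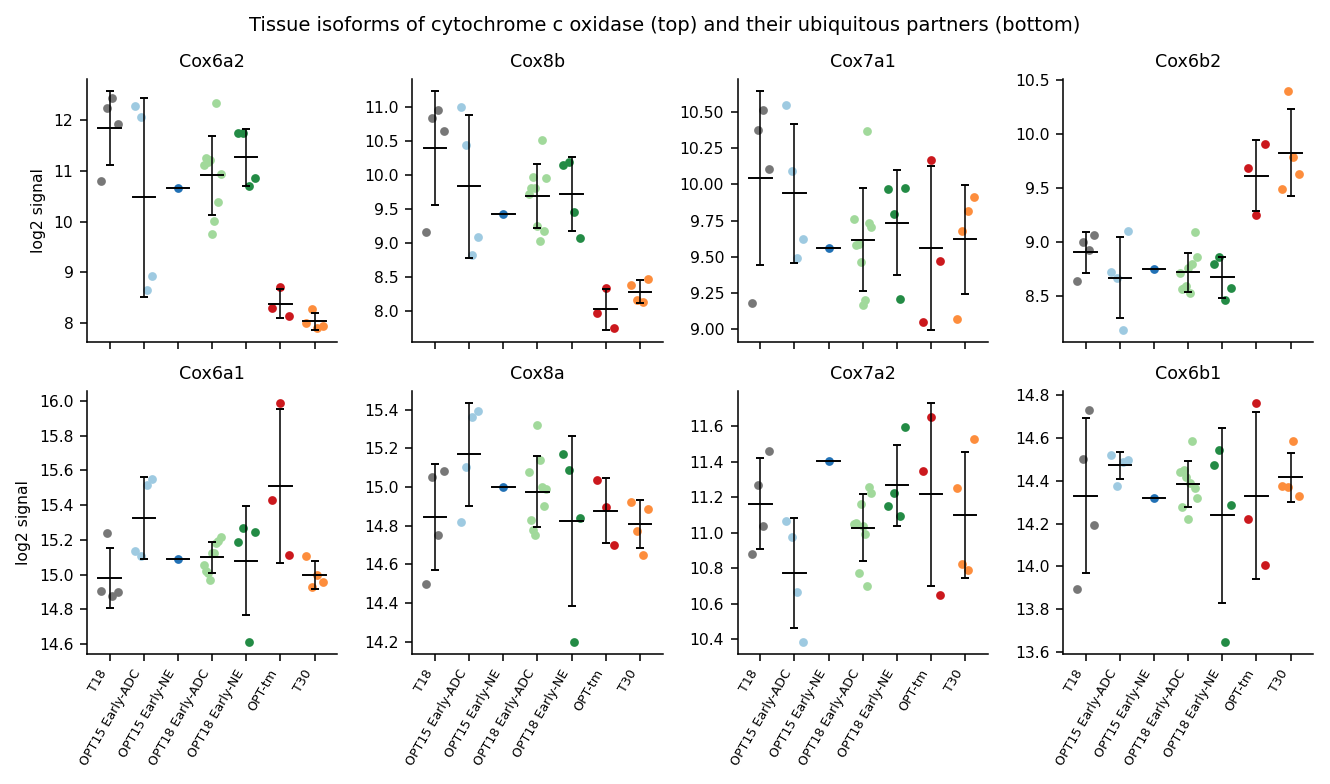
log2 signal (vertical axis) of muscle and other tissue isoforms of cytochrome c oxidase subunits and of their ubiquitous partners, 1 point per array in 7 groups, with mean and SD as bars. Cox6a2 lies at 7.90 to 8.71 in the 7 tumors and at 8.64 to 12.44 in the 22 prostates without palpable tumor, while Cox6a1 stays at 14.61 or above on all arrays.

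Skeletal muscle genes moved with these isoforms. Of 11 tested markers, 11 were lower in OPT-tm than in OPT18 (median change -2.75), against 32.3% of all genes. Between T30 and T18, 10 were lower (median -3.32), against 1.75% of all genes. Their mean signal was 11.24 to 12.54 in T18, 10.15 to 12.11 in OPT18, 8.13 to 8.76 in OPT-tm and 8.81 to 8.93 in T30. The creatine kinase Ckm, the fast myosins Myh1 and Myh4, Actn3 and Pvalb were detected on no tumor array. Acta1 was detected on every tumor array, with a mean of 13.77 in T30 and 9.76 in OPT-tm. Tnnt3, Tnni2, Mylpf, Atp2a1 and Mb were detected on some tumor arrays. The 2 OPT15 prostates low in Cox6a2 had a muscle mean of 9.55 and 9.60, and the other 3 had 11.03 to 12.28. Of 4 adipocyte markers, 3 were lower in OPT-tm than in OPT18 and 0 passed between T30 and T18, against the same shares of all genes. Adipoq, the adipokine of fat cells, was detected on 21 of the 22 prostates without palpable tumor (mean 11.29) and on 1 of 7 tumors (mean 8.13 in OPT-tm and 8.32 in T30). The brown fat gene Ucp1 was detected on 2 of the 22 prostates and on no tumor array. The part of muscle or fat tissue in the sampled prostates in the fall of Cox6a2 and Cox8b was not tested.

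**Figure D5:**
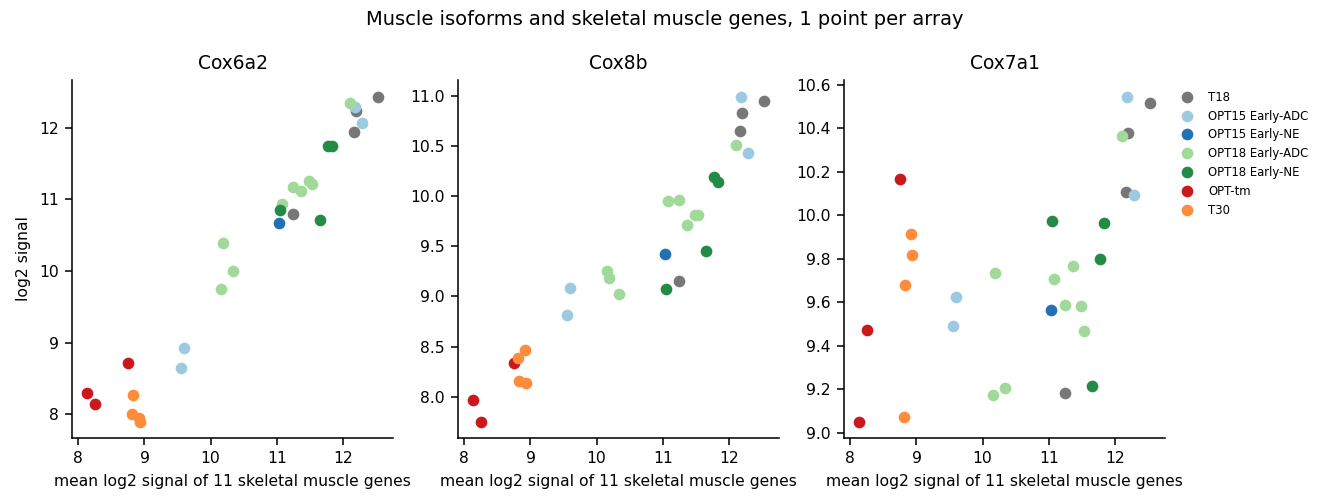
log2 signal of Cox6a2, Cox8b and Cox7a1 (vertical axes) against the mean log2 signal of 11 skeletal muscle genes (horizontal axis), 1 point per array, 29 arrays in 7 groups. Cox6a2 and Cox8b are low where the muscle mean is low, at 8.13 to 8.93 in the tumors, while Cox7a1 in the tumors, at 9.05 to 10.17, overlaps the other arrays.

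The promoters of Cox8b, Cox8a and Cox6a1 are shown since the muscle isoform fell in the tumors and its ubiquitous counterpart and that of Cox6a2 did not. Cox6a2 itself had no promoter entry and was not searched. Each line gives the 250 bases before the annotated start, 5′ to 3′, from RefSeq (GRCm38.p6). All 3 genes lie on the minus strand, and capitals mark the motifs searched for.
Cox8b, chr7:140900447-140900696: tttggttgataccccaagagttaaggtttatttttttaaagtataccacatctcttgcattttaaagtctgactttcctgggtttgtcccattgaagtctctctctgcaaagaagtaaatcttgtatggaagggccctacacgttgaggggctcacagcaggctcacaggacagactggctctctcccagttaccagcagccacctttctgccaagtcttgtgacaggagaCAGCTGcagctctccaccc
Cox8a, chr19:7217617-7217866: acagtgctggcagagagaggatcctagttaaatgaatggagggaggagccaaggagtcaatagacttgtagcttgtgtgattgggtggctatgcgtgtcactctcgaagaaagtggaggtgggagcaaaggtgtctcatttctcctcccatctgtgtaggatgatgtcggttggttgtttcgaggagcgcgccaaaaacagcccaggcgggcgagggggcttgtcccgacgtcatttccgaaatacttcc
Cox6a1, chr5:115348959-115349208: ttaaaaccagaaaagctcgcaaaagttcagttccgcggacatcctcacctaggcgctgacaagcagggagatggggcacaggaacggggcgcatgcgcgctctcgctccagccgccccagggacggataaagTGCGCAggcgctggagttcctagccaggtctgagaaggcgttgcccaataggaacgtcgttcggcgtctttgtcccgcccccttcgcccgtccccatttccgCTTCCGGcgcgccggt
In Cox8b the capitals mark an E-box, CAGCTG, the kind of site bound by myogenic factors. In Cox6a1 they mark TGCGCA, the letters searched for as a core of the site of nuclear respiratory factor NRF1. They also mark CCGGAAG on the opposite strand, a core of ETS family sites. Only exact matches are marked, so variant forms of a site stay in lower case. None of the searched motifs lies whole in the Cox8a stretch shown, but the window up to 50 bases after its start holds 2 ETS cores.

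The motifs were searched on both strands in windows of 300 bases, 250 before to 50 after the start, for 67 members with an entry and for 27025 promoters in all. The NRF1 core TGCGCA was found in 25.4% of the members' promoters and 8.06% of all promoters, and the ETS core CCGGAAG in 22.4% and 9.12%. AAGATGG, a core of YY1 sites, was found in 14.9% and 6.48%, and AAGGTCA, a half-site of estrogen-related receptors, in 8.96% and 4.66%. The E-box CAGCTG was found in 7.46% and 16.1%, and a form of the MEF2 site in 2.99% and 3.7%. The window of Cox7a1, also a muscle form, held none of the searched motifs. The G and C content of the members' windows ran from 43.3% to 77%, for most of them above the median of 52.7% over all promoters. Its part in these shares was not tested. A match describes the letters of the window and does not show binding.

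Cox6b2, the testis form of subunit 6b, ran opposite to the muscle isoforms. It read 9.69, 9.25 and 9.90 in OPT-tm against 8.46 to 9.10 in OPT18 (change 0.91, SE 0.13, adjusted p = 8.68e-06, limma), without overlap. In T30 it read 9.49, 10.40, 9.79 and 9.63 against 8.63, 9.0, 8.92 and 9.07 in T18, also without overlap, a change of 0.92 (SE 0.20, adjusted p = 0.0506, limma) that did not pass. It passed with the authors' normalized values (adjusted p = 0.0435, limma). In 6 of 8 alternative settings (adjusted p up to 0.2802, limma) and 6 of 8 fits that left out a mouse it did not pass. All 7 tumors thus lay above the highest of the 22 prostates without palpable tumor, at 9.10. It was detected on all 7 tumor arrays and on 14 of the other 22.

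Neither genotype at 18 wks nor age within OPN-/-TRAMP gave a member past the test. Between OPT18 and T18, 0 of 79 members were higher and 0 lower, against 0.0186% and 0.0279% of all genes. Unadjusted p in limma was under 0.05 for 2 members and for 726 of 10768 genes. The median change was 0.02, and without the tissue isoforms the changes ran from -0.30 to 0.24, with a median SE of 0.12. Cox6a2 was at -0.83 (adjusted p = 0.706, limma) and Cox8b at -0.70 (adjusted p = 0.685, limma). Between OPT18 and OPT15, members higher and lower were 0 and 0, against 0% of all genes in both directions, with 20 of 79 members and 2259 of 10768 genes at an unadjusted p under 0.05 in limma. With the chip as a block, 3 members were, and all genes were not counted at that level.

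The early classes could only be described, since they were made from these arrays. Between the 4 Early-NE and the 9 Early-ADC prostates of OPT18, 36 members had a higher and 43 a lower mean in Early-NE, with a median difference of -0.01. The differences ran from -0.28 for Ndufa3 to 0.36 for Cox6a2. In none of the 79 members did the 2 classes separate without overlap, where 4.85% of all genes had every Early-NE array above every Early-ADC array and 2.59% below. Ndufaf5, high in the NE tumors, had a mean of 9.56 in Early-NE and 9.49 in Early-ADC.

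The changes toward a tumor in the 2 genotypes were set against each other in 1 fit, as OPT-tm minus OPT18 less T30 minus T18. In this test 3 members had a positive and 2 a negative difference, against 22.3% and 22.3% of all genes. Positive were Ndufs5-ps (0.73, SE 0.25, adjusted p = 0.0224), Ndufaf5 (0.72, SE 0.20, adjusted p = 0.0053) and Ndufb7 (0.56, SE 0.20, adjusted p = 0.0270) in limma. Negative were Ndufa1 (-0.89, SE 0.25, adjusted p = 0.0052) and Ndufa6 (-0.65, SE 0.23, adjusted p = 0.0250) in limma. These 5 are complex I genes, and each had a smaller change or the opposite sign between T30 and T18. For Cox6a2 and Cox8b, detected on 1 and 0 of 7 tumor arrays, this difference has no measured tumor level to rest on and is not given. The counts ran to 12 positive and 1 negative without the OPT-tm tumor of chip 3 and 1 and 7 without that of chip 2, and with the chip as a block they were 6 and 6. Over all genes these fits gave 2244 and 2144, 2364 and 2341, and 2655 and 2658. Array medians set equal left 1 positive and 0 negative, against 1620 and 1388 of all genes. At an unadjusted p under 0.05 in limma were 4 members then and 15 in the main fit, beside 5555 of 10768 genes there.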

How the data were processed

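The authors summarized scanned images with BeadStudio and deposited, for each probe, a signal intensity without normalization and a detection p-value. They also deposited log2 values that they had normalized by robust splines in lumi, whose version was not given in the sources read. That method was not installed, so these values served as an alternative. Signals were log2 transformed and quantile normalized over the arrays (limma 3.58.1, R 4.3.3). The annotation gave 1 symbol for 23978 of 25697 probes and no symbol for 1719. A probe entered if any array detected it (detection p-value below 0.01, 15825 probes), and, as in the study, each gene was read from its most often detected probe, which gave 10768 genes. Each comparison was fitted in limma on its own groups, with Benjamini-Hochberg adjustment over all genes and 0.05 as the threshold. The members and lists were chosen with earlier results of these data known. Named with full values were the tissue isoforms with their ubiquitous partners and, per comparison and complex, up to 2 rises and 2 falls past the test, taken by size, and any other member could be named. Of each list beside the complexes, up to 3 genes were named by size of change, and cell type markers by their detection. A bound ("at least") was given where a probe was detected on no array of the lower group. The arrays are 1 per mouse and their number limits the precision. The alternatives were the authors' values, neqc background correction (offset 16), array medians set equal, no filter, the mean of all probes of a gene, 1 fit of 29 arrays, other limma settings, the chip as a block, Early-ADC prostates only, and each mouse of groups of 5 or fewer left out. Replicate numbers of the T18 and T30 mice coincide with the chip, so the chip block is also their replicate block. Scripts were checked on simulated data. Figures were made in Python 3.11.15 (matplotlib 3.10.9).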

Additional observations from a re-analysis of the deposited data

Results flagged for a closer look

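In groups of 4 to 10 arrays, the highest or lowest array was tested for its gap to the nearest other one, over 120 tests on 24 named genes. It stood apart in 12, where chance gives about 1 in 20 groups for a single test. The tests reuse the same arrays and are not independent, so that rate gives no expected count here. The OPT18 Early-NE prostate 3 on chip 4 was low for Cox6a1 (14.61), Ndufa3 (12.72) and Ndufa5 (12.58), and the Early-NE prostate 4 for Ndufaf5 (9.19). The median deviation of the subunits on that prostate 3 was -0.20, the lowest of its class. Among OPT18 Early-ADC prostates, number 7 on chip 3 was high for Cox7a1 (10.36) and for Cox4i2 (8.64), which was not detected there, and number 8 was high for Atp5h (13.25). In T30, number 3 on chip 3 was high for Cox6b1 (14.59) and Ndufa3 (14.27), and number 1 was low for Ndufaf5 (9.45). In T18, number 1 was low for Atp5j (14.56) and number 2 high for Cox6a1 (15.24).

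The change from prostates without palpable tumor to tumors differed between OPN-/-TRAMP and TRAMP, by the limma contrast of the changes, for Ndufa1 (-0.89), Ndufa6 (-0.65), Ndufaf5 (0.72), Ndufs5-ps (0.73) and Ndufb7 (0.56). Age also differed between the TRAMP groups and not between the OPN-/-TRAMP groups, and its part in these differences cannot be told apart.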

How the results depend on the processing

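For members that passed a comparison, and Cox6b2 in T30 against T18, 40 results in all, 0 changed sign: 554 of their values stayed on their side of the threshold, 116 no longer passed and 4, of Cox6b2, came to pass. Other members that came to pass stand in the counts that follow. For OPT-tm against T30, array medians set equal left 0 members lower, all 29 arrays in 1 fit gave 12 higher and 5 lower, and leaving out a mouse gave 3 to 7 higher and 1 to 6 lower. Over all genes these gave 1312 lower, 3005 higher and 3099 lower, and 1918 to 2196 higher and 1890 to 2347 lower. For OPT-tm against OPT18, array medians set equal gave 6 higher and 3 lower, the chip as a replicate block 10 lower, and leaving out a mouse 7 to 21 higher and 7 to 24 lower. Over all genes these gave 2930 higher and 2712 lower, 3589 lower, and 3174 to 3475 higher and 3137 to 3520 lower. For T30 against T18, 1 member was higher with the authors' values and 2 in 1 fit of 29 arrays, 1 was lower with the chip as a replicate block, and leaving out a mouse gave 0 to 1 higher and 1 to 2 lower. Over all genes these gave 56 and 545 higher, 139 lower, and 10 to 152 higher and 98 to 296 lower. For the difference of the tumor changes, array medians set equal gave 1 positive and 0 negative, the chip as a replicate block 6 and 6, and leaving out a mouse 1 to 12 positive and 1 to 7 negative. Over all genes these gave 1620 and 1388, 2655 and 2658, and 2223 to 2437 positive and 2144 to 2445 negative. The counts for OPT18 against T18 and OPT15 were 0 in both directions under every alternative run. Over all genes they reached at most 50 higher and 7 lower against T18, and 104 and 132 against OPT15. The cause of these shifts was not tested. Cox6a2, Cox8b, Cox6b2, Atp5o, Ndufa5, Ndufa6, Ndufaf5, Ndufb7 and Ndufs5-ps passed between OPT-tm and OPT18 under every alternative run. In the tumors Cox8b and nearly all Cox6a2 signals were not above background, so only bounds can be given there.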

Other observations

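Genes that work beside the 5 complexes were counted from lists of their own. Between OPT-tm and T30, of 9 electron carriers and shuttles 1 was higher, the outer membrane channel Vdac3 (0.83), and 1 lower, Etfb of the electron transfer flavoprotein (-1.03). Of 22 other assembly factors of the complexes, 1 was higher and 8 lower (median change -0.24), with Cox10, which makes heme a precursors, at 1.07, and Cmc1 (-1.17) and Cox20 (-0.77), which act in building cytochrome c oxidase, among the lower. Of 67 mitochondrial ribosomal proteins, 6 were higher and 7 lower (median -0.06). All of these stand against 21.4% of all genes higher and 21.7% lower.

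Among 12 genes of the tricarboxylic acid cycle, Idh3a (1.33) and Dlst (0.69) were higher and Suclg2 (-1.53), a subunit of the GDP-forming succinyl-CoA ligase, was lower. Of 8 genes of the pyruvate dehydrogenase complex and its regulators, 2 were higher and 2 lower, with the phosphatase subunit Pdp1 at 1.54, Dlat at 0.91 and the inhibitory kinase Pdk2 at -0.67. Of 12 regulators of mitochondrial biogenesis, 3 were higher and 2 lower. These counts too stand against 21.4% of all genes higher and 21.7% lower, and are not read as a result about these pathways. The coactivator Ppargc1a was at 1.54, Nrf1 at 0.84 and the nuclear receptor Esrra at -0.96, and each passed the test in limma.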
